A study of Bos taurus with 10 samples.

Results

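Oocyte and maternal-effect transcripts were followed in single bovine early blastocysts. The set was given by name and holds 10 genes: *GDF9*, *BMP15*, *ZP2*, *ZP3*, *ZP4*, *ZAR1*, *NLRP5*, *OOEP*, *KHDC3L* and *H1FOO*. Of these, 9 were listed among the 20112 genes of the table and all 9 were tested. *KHDC3L* was not listed under its symbol and is not analysed here. The 5 WT embryos had been injected with mRNA of the cytosine base editor BE3 as zygotes. The 5 *SOX2* KO embryos had received the same mRNA with a mixture of sgRNAs that install premature stop codons in *SOX2*. All embryos were produced in vitro from oocytes of abattoir ovaries, and each library was 1 whole embryo. The labels give day 7.0 after fertilization, and the study's text gives a slightly later time. Embryos are named by the columns of the table, nc1 to nc5 for WT and ko1 to ko5 for *SOX2* KO.

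The oocyte builds a store of mRNA and protein while it grows in the follicle. This store carries the embryo through fertilization and the first cleavages, and most of the mRNA is cleared around the time the embryonic genome becomes active. Maternal-effect genes are genes whose product has to be laid down by the mother for the embryo to develop. A blastocyst lies well after this handover in cattle, so these transcripts are usually regarded as low there. Read counts per gene cannot tell a transcript left over from the oocyte from one made by the embryo. They likewise cannot tell fewer cells of a type from less RNA per cell.

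The values are normalized read counts, that is the reads of a gene divided by a scaling factor for each embryo. The embryos held 2223670 to 5134855 reads on genes, and 1 read was worth 0.590 to 1.48 normalized read counts. A gene with no read in an embryo could have up to 3 reads by counting error alone, which is 1.77 to 4.45 normalized read counts. Blastocyst markers were present, with *KRT18* (trophectoderm) at a mean of 9100 and *POU5F1* (pluripotency) at a mean of 1212 in WT. The targeted gene *SOX2* had 56.5, 93.4, 83.5, 73.0 and 84.4 normalized read counts in nc1 to nc5 and 39.0, 26.4, 64.0, 82.1 and 71.5 in ko1 to ko5, with overlapping groups and a log2 fold change of -0.55 (adjusted p = 0.167 by limma). A stop codon need not lower the mRNA, so this level is a weak check of the labels. The authors genotyped each sequenced blastocyst from part of its cDNA library. The libraries of the groups differed in the number of genes with at least 1 read, 16998 ± 919 for WT against 18902 ± 825 for *SOX2* KO (SD, n = 5 each, p = 0.0159 by a two-sided exact permutation test). The share of reads on the ribosomal RNA gene *RN18S1* was 26.4% to 37.0% for WT against 32.5% to 45.0% for *SOX2* KO (p = 0.0635 by the same exact permutation test). The part of these differences in the results on the set was not tested.

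Of the 9 genes, 8 did not pass the test between the groups. Not passing says little for a gene with a mean under 10 normalized read counts. In simulated data limma found 3 of 85 changes of 2 on the log2 scale at that level. Only 195 of 19479 genes were changed in that simulation, against 10.1% of genes called here. The adjusted p was then harder to pass, so this recovery may be lower than in these data. *NLRP5* passed as higher in *SOX2* KO embryos on 4 reads in WT and 17 in *SOX2* KO, and this call was lost in 13 of 21 alternatives, DESeq2 and edgeR included. A gene was called when its limma adjusted p, by the Benjamini-Hochberg method over the 20056 genes tested, was at most 0.05 and its fold change at least 2 or at most 0.5. By this rule 1 of 9 genes of the set was called higher and 0 were called lower. Over all genes tested, 8.93% were called higher, 1.16% lower and 10.1% in either direction, so the share in the set was near the background. At an unadjusted limma p under 0.05, 2 of the 9 genes were higher and 0 lower. DESeq2 and edgeR on the reads behind the values called 0 of the 9 genes. Over all genes they called 2074 of 20112 and 1985 of 20056. By these tools 2 and 3 of the 9 genes had an unadjusted p under 0.05. The share of all genes at an unadjusted p under 0.05 was not computed, so these counts of 2 and 3 stand without a background. The median log2 fold change of the 9 genes was 0.13, and that of all genes tested was 0.25.

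To set each gene beside others with like read support, the genes were split by their mean, which does not rank expression between genes because lengths differ. *GDF9*, *ZP2*, *ZP4*, *ZAR1*, *NLRP5* and *H1FOO* had a mean under 10 normalized read counts over the 10 embryos, and *BMP15*, *ZP3* and *OOEP* had a mean over 10. The place of *BMP15* rests on nc2 and nc4, since it was at 11.9 or below in the other 8 embryos. Of the genes under 10, 4 of 6 genes had a positive log2 fold change with a median of 0.82. Of the 8722 genes tested with a mean under 10, 83.7% had a positive one with a median of 0.93, 14.1% were called higher and 0.195% lower. Of the genes over 10, 1 of 3 had a positive log2 fold change. At a mean from 10 up to 100, 52.8% of 6786 genes did, with a median of 0.04, and 6.76% were called higher and 2.27% lower.

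**Figure D1:**
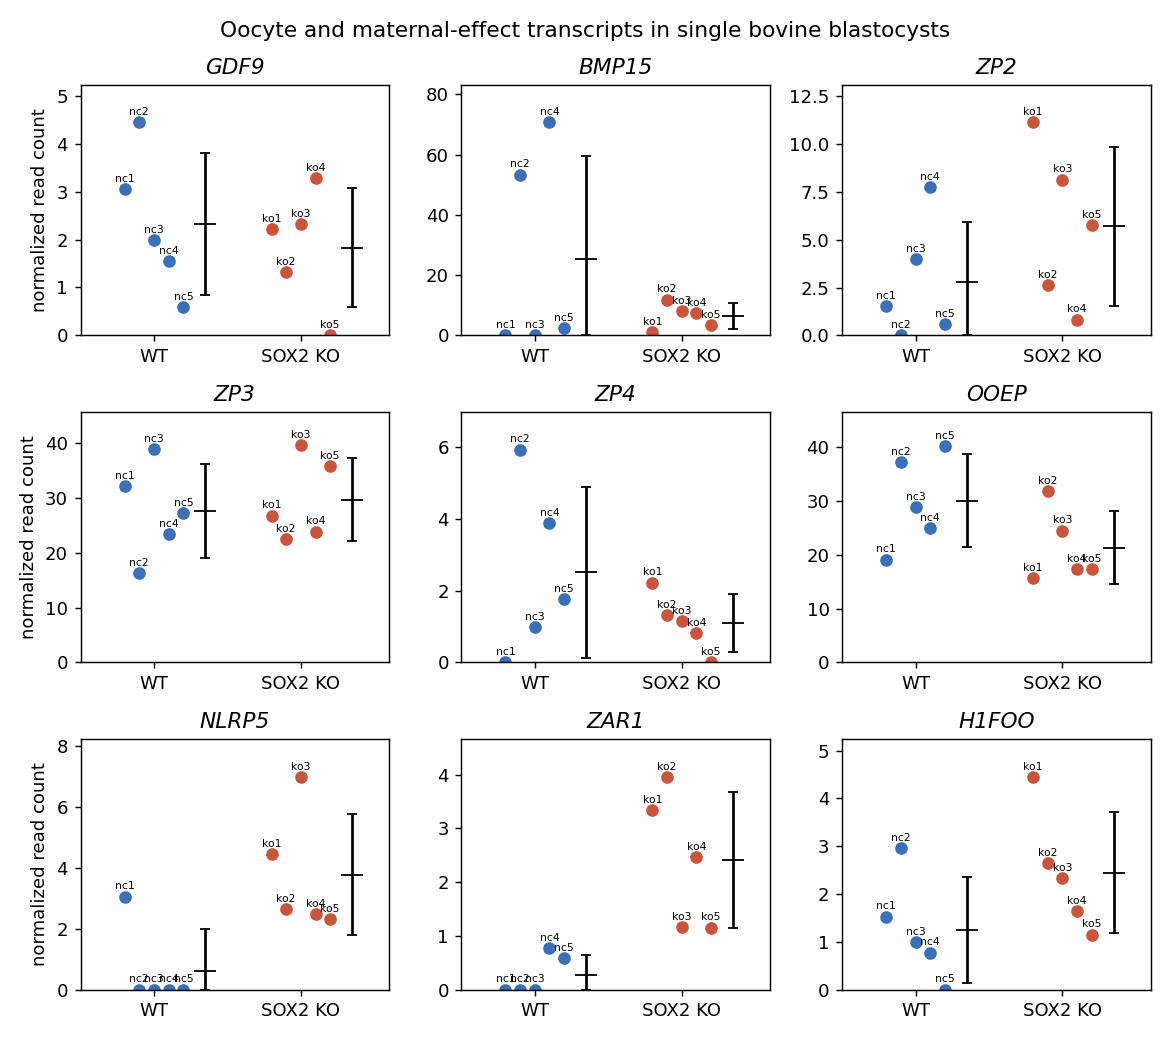
Normalized read count of each of the 9 transcripts in each embryo, with a separate linear axis from 0 in each panel. Points are single embryos labelled by their column, bars to the right are the mean and SD of 5 embryos with the lower bar cut at 0. *BMP15* stands at 53.4 and 70.7 in nc2 and nc4 and at 11.9 or below in every other embryo, while *ZP3* and *OOEP* are present in all 10.

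*GDF9* and *BMP15* encode growth factors of the TGF-beta superfamily that the oocyte secretes and that act on the granulosa and cumulus cells around it. *BMP15* had normalized read counts of 0, 53.4, 0, 70.7 and 2.36 in nc1 to nc5 and of 1.11, 11.9, 8.14, 7.39 and 3.46 in ko1 to ko5. It was high in 2 WT embryos and low or absent in the other 3. All *SOX2* KO embryos lay below nc2 and nc4, and ko1, with 1 read, lay below nc5 as well. The high values rest on 36 reads in nc2 and 91 reads in nc4. The absence in nc1 and nc3 allows up to 2.29 and 2.98 normalized read counts. The means were 25.3 ± 34.1 and 6.40 ± 4.20 (SD, n = 5 each), whereas the medians, 2.36 and 7.39, had the opposite order. In limma, the log2 fold change was -0.10, with a 95% confidence interval from -2.17 to 1.97 (limma adjusted p = 0.959). DESeq2, which works on counts, gave -1.98 (adjusted p = 0.369). Without nc2 and nc4 the log2 fold change was 2.05 (limma adjusted p = 0.113), an alternative chosen after these values were seen. The sign also turned when nc2, nc4, ko1 or ko5 alone was left out, so no direction can be given for *BMP15*.

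*GDF9* showed no such split. Its normalized read counts were 3.05, 4.45, 1.99, 1.55 and 0.590 in nc1 to nc5 and 2.23, 1.32, 2.33, 3.29 and 0 in ko1 to ko5. The groups overlapped throughout, and no embryo had over 4 reads. Its log2 fold change was -0.27 (95% confidence interval -1.43 to 0.90, limma adjusted p = 0.775). The groups held 12 and 9 reads in all.

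*ZP2*, *ZP3* and *ZP4* encode glycoproteins of the zona pellucida, the coat of the egg that binds sperm and that the embryo sheds on hatching. The authors removed the zona with pronase before lysis, which takes away the protein coat and not the mRNA within the cells. *ZP3* had 32.1, 16.3, 38.8, 23.3 and 27.2 normalized read counts in nc1 to nc5 and 26.7, 22.4, 39.5, 23.8 and 35.7 in ko1 to ko5. It was present in every embryo with 11 reads or more, and the groups covered nearly the same range. The means were 27.5 ± 8.53 and 29.7 ± 7.57 (SD, n = 5 each). The log2 fold change was 0.13 (95% confidence interval -0.50 to 0.75, limma adjusted p = 0.807). This interval leaves out a change of 2-fold in either direction.

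*ZP2* had 1.53, 0, 3.98, 7.77 and 0.590 normalized read counts in nc1 to nc5 and 11.1, 2.64, 8.14, 0.821 and 5.77 in ko1 to ko5. The 2 highest embryos were ko1 and ko3, and the third was the WT embryo nc4. In limma, the log2 fold change was 0.97 (95% confidence interval -0.42 to 2.35, limma adjusted p = 0.320), close to the median of genes at this level. *ZP4* had 0, 5.93, 0.994, 3.89 and 1.77 in nc1 to nc5 and 2.23, 1.32, 1.16, 0.821 and 0 in ko1 to ko5. Its 2 highest embryos were nc2 and nc4, the same 2 as for *BMP15*, on 4 and 5 reads. Its log2 fold change was -0.53 (95% confidence interval -1.75 to 0.69, limma adjusted p = 0.551). Of the genes with a mean under 10, 6.12% had a smaller log2 fold change than *ZP4*.

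*OOEP* and *NLRP5* encode parts of the subcortical maternal complex, an assembly under the membrane of the egg and early embryo that is needed for the first cleavages in mice. *OOEP* had 19.1, 37.1, 28.8, 24.9 and 40.1 normalized read counts in nc1 to nc5 and 15.6, 31.7, 24.4, 17.3 and 17.3 in ko1 to ko5. It was present in every embryo with 14 reads or more, and 3 of the *SOX2* KO embryos lay below the lowest WT embryo. The means were 30.0 ± 8.66 and 21.2 ± 6.76 (SD, n = 5 each). The log2 fold change was -0.48 (95% confidence interval -1.14 to 0.18, limma adjusted p = 0.297). It was negative in all 21 alternative fits, from -0.75 to -0.37, and its limma, DESeq2 or edgeR adjusted p was never under 0.189.

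*NLRP5* had 3.05, 0, 0, 0 and 0 normalized read counts in nc1 to nc5 and 4.45, 2.64, 6.98, 2.46 and 2.31 in ko1 to ko5. It was found in 1 of 5 WT and in 5 of 5 *SOX2* KO embryos, and nc1 lay above 3 of the *SOX2* KO embryos. In limma, the log2 fold change was 1.76 (standard error 0.55, 95% confidence interval 0.61 to 2.92, limma adjusted p = 0.0407). The values rest on 4 reads in WT and 17 in *SOX2* KO embryos, a ratio of 5.52 with an exact 95% interval of 1.80 to 22.5 that covers counting error only. The call was lost with DESeq2 (log2 fold change 2.51, adjusted p = 0.147), with edgeR (log2 fold change 2.24, adjusted p = 0.137) and when any one of nc2, nc3, nc4, nc5, ko1, ko3 or ko5 was left out, with limma adjusted p up to 0.0941. By the scale used, the log2 fold change ran from 0.65 with a pseudocount of 5 and 0.70 with quantile normalization to 4.14 with a pseudocount of 0.1. Without nc2 and nc4 together the log2 fold change was 1.49 (limma adjusted p = 0.220). Of the genes with a mean under 10, 13.8% had a larger log2 fold change than *NLRP5*. In the RefSeq gene table of the later assembly ARS-UCD2.0, *NLRP5* lies beside its relatives *NLRP8* and *NLRP13* and overlaps an uncharacterized gene. That gene was not among the 20112 genes listed, and whether any reads are shared was not tested.

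*ZAR1* encodes an RNA-binding protein of the oocyte that is needed for the passage from egg to embryo. Its normalized read counts were 0, 0, 0, 0.777 and 0.590 in nc1 to nc5 and 3.34, 3.96, 1.16, 2.46 and 1.15 in ko1 to ko5. Every *SOX2* KO embryo lay above every WT embryo, and *ZAR1* was the only one of the 9 genes whose groups did not overlap. In reads the groups met, with 1 read each in nc4, nc5, ko3 and ko5, so the gap between 0.777 and 1.15 is the scaling of a single read. The 0 reads in nc1, nc2 and nc3 allow up to 2.29, 4.45 and 2.98 normalized read counts. Among all genes tested 6.41%, and among those with a mean under 10 8.85%, had all *SOX2* KO embryos above all WT embryos. The values rest on 2 reads in WT and 11 in *SOX2* KO embryos, a ratio of 7.14 with an exact 95% interval of 1.56 to 66.3 for counting error. Its log2 fold change was 1.39 (95% confidence interval 0.34 to 2.43), and the limma adjusted p of 0.0672 did not pass. Across the 20 alternatives the adjusted p lay between 0.0613 and 0.782. *ZAR1* overlaps *FRYL* in the same RefSeq table, and *FRYL* had 147 ± 25.1 and 151 ± 36.3 normalized read counts in WT and *SOX2* KO embryos (SD, n = 5 each). Its log2 fold change was 0.02.

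*H1FOO*, named *H1-8* in RefSeq, encodes the linker histone of the oocyte, which is replaced by somatic linker histones as the embryo develops. It had 1.53, 2.97, 0.994, 0.777 and 0 normalized read counts in nc1 to nc5 and 4.45, 2.64, 2.33, 1.64 and 1.15 in ko1 to ko5. At most 4 reads were found in any embryo, and the groups overlapped. The log2 fold change was 0.68 (95% confidence interval -0.43 to 1.79, limma adjusted p = 0.386).

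**Figure D2:**
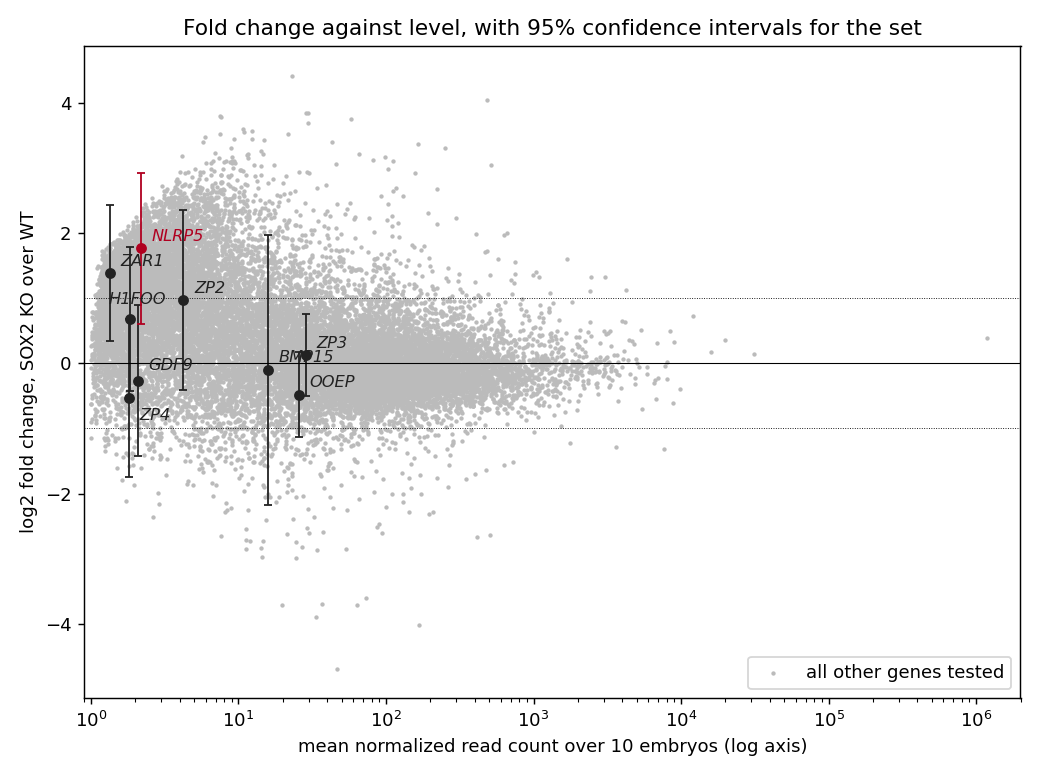
Log2 fold change of *SOX2* KO over WT against the mean normalized read count (log axis) for all genes tested in grey, with the 9 transcripts as larger points and 95% confidence intervals from limma. The dotted lines mark 2-fold changes. Only *NLRP5*, in red, was called, and the cloud of genes with a mean under 10 lies above 0, with a median of 0.93.

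The number of these transcripts found at all differed between embryos. At least 1 read was found for 6, 6, 6, 8 and 7 of the 9 genes in nc1 to nc5 and for 9, 9, 9, 9 and 7 in ko1 to ko5. With the reads of each embryo thinned to 2223670, the total of nc2, the expected numbers were 5.01 to 6.68 for WT and 6.09 to 8.67 for *SOX2* KO. The number of all genes found moved the same way, as given above. The summed level did not follow the number found. The 9 genes together had 60.3, 120, 75.6, 134 and 73.2 normalized read counts in nc1 to nc5 and 71.3, 80.6, 94.2, 60.0 and 66.9 in ko1 to ko5. Without *BMP15* the sums were 60.3 to 75.6 for WT and 52.6 to 86.1 for *SOX2* KO, so *BMP15* made the sums of nc2 and nc4 stand above the rest.

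The genes most like each of the 3 transcripts with a mean over 10 were sought among 11333 other genes with a mean of at least 10, by Pearson's r of log2(normalized read count + 1) over the 10 embryos. For *BMP15* they included *EIF3M* (r = 0.92) and *PDLIM4* (r = 0.92), both with their 2 highest WT values in nc2 and nc4. For *ZP3* they were *LOC112447361* (r = 0.97), *ELF4* (r = 0.93) and *MTSS1L* (r = 0.93). For *OOEP* they were *CTR9* (r = 0.92), *MTFR2* (r = 0.90) and *ZSCAN12* (r = 0.89). These are the highest of many values over few embryos that share their library and group, so they describe likeness alone. Among the 3 transcripts themselves, r was -0.68 for *BMP15* and *ZP3*, 0.33 for *BMP15* and *OOEP* and -0.34 for *ZP3* and *OOEP*.

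Other oocyte genes were taken from 5 lists by function: 2 tested genes of the zona and cortical granules, 8 of the subcortical maternal complex and the oocyte NLRP family, 7 oocyte transcription factors, 16 genes of maternal mRNA storage and clearance and 11 genes of meiosis and the egg nucleus. Of these 44 genes, limma called 1 higher and 1 lower in *SOX2* KO embryos, against 8.93% and 1.16% of all genes tested. The median log2 fold change of the 44 genes was 0.13. The counts stood at 1 higher and 1 lower with DESeq2 and with edgeR as well. The lists of the complex, the transcription factors and the mRNA genes held 0 calls by all 3 tools. They held 2, 2 and 3 genes at an unadjusted limma p under 0.05, with no share of all genes computed at that p.

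*ASTL* encodes ovastacin, the protease of the cortical granules that cleaves ZP2 after fertilization. It rose from 1.53, 1.48, 1.99, 1.55 and 0 normalized read counts in nc1 to nc5 to 17.8, 2.64, 12.8, 8.21 and 9.22 in ko1 to ko5. No WT embryo reached the lowest *SOX2* KO embryo in normalized read counts, as for 8.85% of genes with a mean under 10. In reads the groups met, with 2 reads each in nc1, nc3, nc4 and ko2. The groups held 7 and 47 reads in all. It differed by 2.17 on the log2 scale (SE 0.56, adjusted p = 0.0166 by limma). The call was kept with each embryo left out in turn and was lost with quantile normalization and without nc2 and nc4 together (limma adjusted p = 0.0549).

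*DPPA3*, also called STELLA, encodes a maternal factor that protects the egg's DNA methylation and that the early embryo expresses as well. It fell from 607, 830, 764, 754 and 632 normalized read counts in nc1 to nc5 to 206, 291, 187, 280 and 196 in ko1 to ko5. The groups were far apart, and differed by -1.64 on the log2 scale (SE 0.16, adjusted p = 4.86e-06 by limma). Without nc2 and nc4 it was -1.54 (limma adjusted p = 0.000103). *TRIM28*, a corepressor that guards imprints in the early embryo, went from 960 ± 104 to 696 ± 97.0 (SD, n = 5 each). It passed on the limma adjusted p (0.0407) and not on the fold change, with a log2 fold change of -0.47.

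Among the genes that store or clear maternal mRNA, the deadenylase subunits *CNOT6* and *CNOT7* differed by -0.48 and -0.39 on the log2 scale (adjusted p = 0.0590 and 0.128 by limma). *YTHDF2*, a reader of methylated mRNA, had -0.55 (limma adjusted p = 0.0675). *ZFP36L2* and *MARF1*, which promote decay of target mRNA in oocytes, had 0.03 and -0.16 (limma adjusted p = 0.940 and 0.551). The transcription factor *FOXO3*, which restrains the growth of follicles, had -0.44 (limma adjusted p = 0.148). None of these 6 genes with a mean over 100 was called. *CNOT6* passed on the adjusted p alone with DESeq2 (0.0412) and edgeR (0.0369). *YTHDF2* did so as well, with adjusted p of 0.0494 by DESeq2 and 0.0351 by edgeR.

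Several oocyte genes beside *BMP15* had their highest value in the WT embryos nc2 or nc4, while others of the same lists were low there. *NLRP13* had 0 normalized read counts in nc2 and 0.777 in nc4, against 6.87 to 10.9 in the other WT embryos. *TLE6* and *CCNB3* had their lowest WT values, 24.1 and 29.5, in nc4. The genes given here were chosen after their values were seen and get no test. *BTG4*, an adaptor for deadenylation of maternal mRNA, had 75.6 normalized read counts in nc2 and 28.0 in nc4, against 3.82 to 15.8 in the other 8 embryos. *EIF4E1B*, a cap-binding protein of the oocyte, had 37.1 in nc2 and 10.1 in nc4, with 11.1 in ko1 and at most 5.77 in the others. *OOSP2*, an oocyte-secreted protein, had 56.4 in nc2 and 0 in nc4, and *MOS*, the kinase that holds the egg in meiosis, had 19.3 in nc2 and 0.777 in nc4. *PADI6* of the subcortical maternal complex and *NPM2*, a histone chaperone of the egg, had 13.2 and 10.9 in nc4 and 2.97 each in nc2. The transcripts that were high thus differed between nc2 and nc4, and *BMP15* and *BTG4* were high in both.

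The embryos nc2 and nc4 were picked after values of these genes were seen, so the counts that follow are no test. Over the 5 lists, 16 of 44 genes (36.4%) had their highest value in nc2 or nc4, against 18.4% of all genes tested. Among genes with a mean under 10, the figures were 8 of 22 (36.4%) and 6.90%. At a mean from 10 up to 100 they were 3 of 14 (21.4%) and 21.8%, so the lists did not stand out there. At a mean of at least 100, *CNOT7*, *MARF1* and *FOXO3* were highest in nc4 and *YTHDF2* and *DPPA3* in nc2. *CNOT6*, *ZFP36L2* and *TRIM28* were highest in other embryos, and the share of all genes at that level was not computed. The library of nc2 was the smallest of the 10 and that of nc4 the second largest, and their *RN18S1* shares, 28.1% and 31.9%, lay within the range of WT. Markers of the blastocyst lineages were mixed in these embryos. Of 5 inner cell mass markers 2 had their highest value there, *SOX2* in nc2 and *NANOG* in nc4, while *POU5F1* in nc2 (998) was the lowest of WT. Of 4 primitive endoderm markers 3 had their highest value there, *GATA4* and *PDGFRA* in nc2 and *HNF4A* in nc4, while *GATA6* in nc2 and nc4 (811 and 818) was the lowest of WT. Of 7 linker histone genes 3 were highest in nc2 and 0 in nc4. All 5 inner cell mass markers, all 4 primitive endoderm markers and 6 of the 7 linker histones had a negative log2 fold change. The highest value of such genes tends to fall in 1 of the 5 WT embryos. No share of like genes was taken, so these counts do not set nc2 and nc4 apart. Whether these levels have a shared source was not tested.

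**Figure D3:**
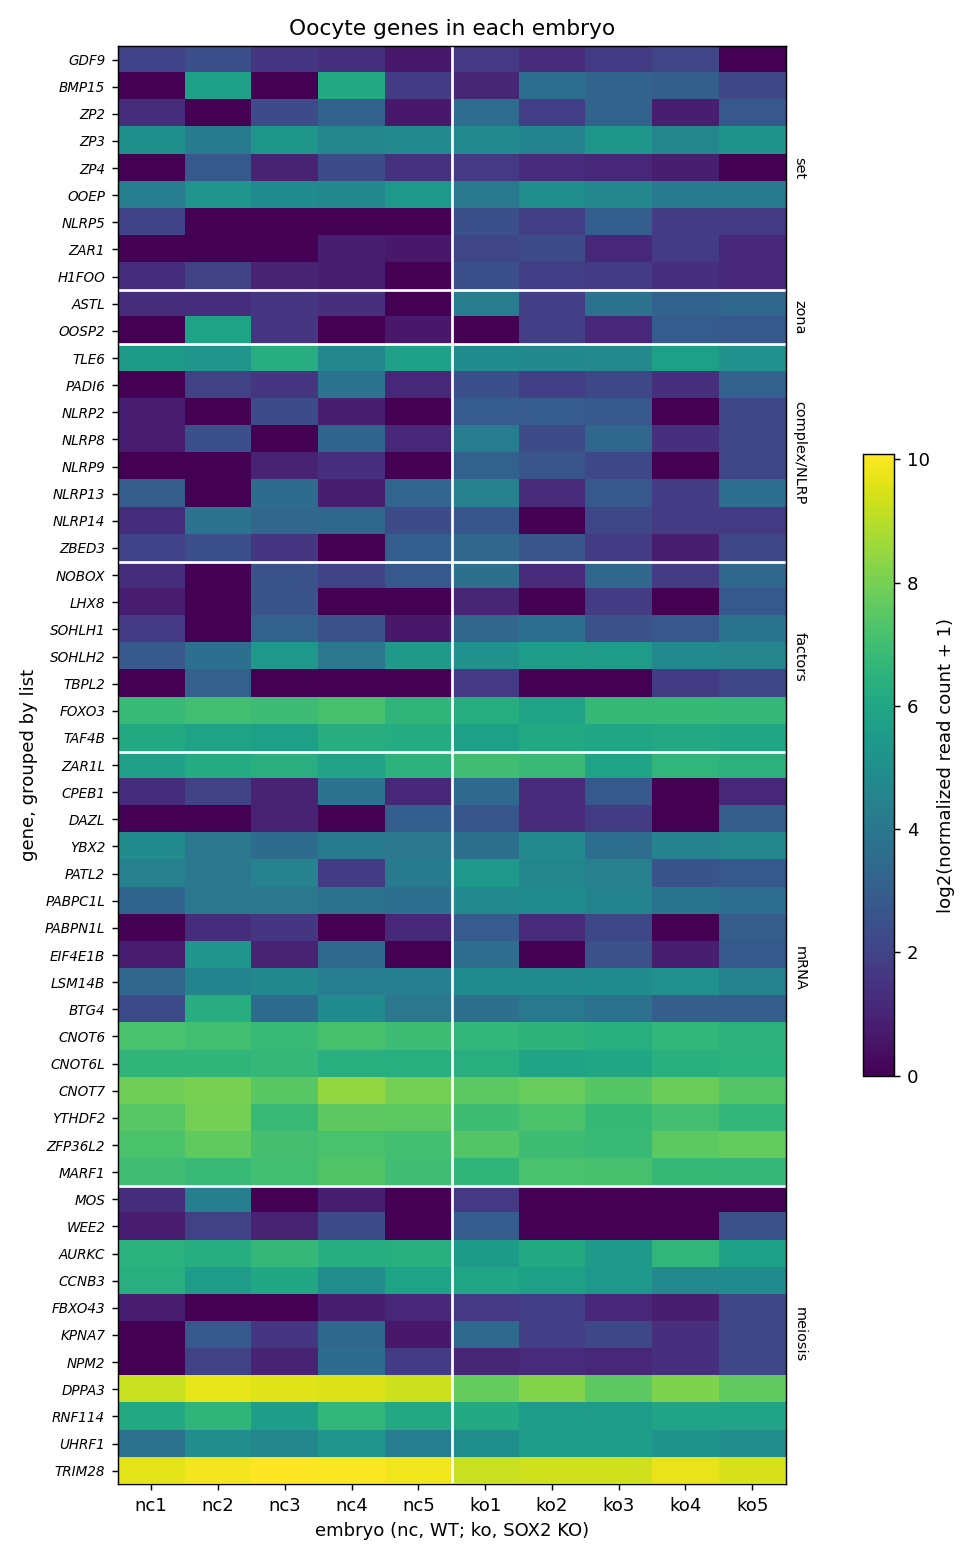
Colour shows log2(normalized read count + 1) of the 9 transcripts and 44 other oocyte genes (rows, grouped by list) in each embryo (columns, WT on the left and *SOX2* KO on the right of the white line). *BMP15*, *BTG4* and *EIF4E1B* are brightest in nc2 and nc4 in their rows among WT embryos, and *DPPA3* is darker in all 5 *SOX2* KO embryos.

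GDF9 and BMP15 are made as precursors that are cut by proprotein convertases, bind *BMPR2* with *BMPR1B* or *TGFBR1*, and act through SMAD proteins. Of the 14 tested genes of this pathway, 1 was called higher and 0 lower, with a median log2 fold change of -0.09. Over all genes tested, the shares were 8.93% higher and 1.16% lower. *FURIN*, a convertase with many other substrates, rose from 169, 68.2, 143, 193 and 81.5 normalized read counts in nc1 to nc5 to 209, 267, 324, 273 and 330 in ko1 to ko5. The groups did not overlap, and differed by 1.19 on the log2 scale (SE 0.24, adjusted p = 0.00455 by limma). Without nc2 it was 0.98, under the threshold on the fold change (limma adjusted p = 0.0189). *SMAD7*, an inhibitor of the pathway, had 0.65 and passed on the limma adjusted p alone (0.0360). The type I receptor *TGFBR1* and the signal transducers *SMAD1*, *SMAD2* and *SMAD4* had -0.34, 0.28, -0.39 and 0.01, with limma adjusted p from 0.0901 to 0.966.

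The linker histones that take the place of H1FOO were the related genes with the most calls. Of 7 tested genes, 3 were called lower and 1 higher, with a median log2 fold change of -0.86. Over all genes tested, 1.16% were called lower and 8.93% higher. *HIST1H1E* fell from 137 ± 26.0 to 61.8 ± 17.0 normalized read counts and *HIST1H1A* from 33.4 ± 23.3 to 8.96 ± 3.26 (SD, n = 5 each). *HIST1H1B* fell from 34.8 to 60.8 in WT to 14.5 to 23.8 in *SOX2* KO embryos. On the log2 scale *HIST1H1E* differed by -1.17, *HIST1H1B* by -1.20 and *HIST1H1A* by -1.59, with limma adjusted p of 0.00302, 0.00811 and 0.020. The call of *HIST1H1A* was lost without nc2 or without nc4, that of *HIST1H1E* without ko1 by its fold change of -0.97, and that of *HIST1H1B* without nc2 and nc4 together. *HIST1H1C* passed on the limma adjusted p alone (0.00831), with -0.86. *H1FX* rose from 7.27 ± 4.90 to 18.5 ± 4.89 (SD, n = 5 each) with an adjusted p of 0.0493 by limma. Its call was lost when 1 embryo was left out in 7 of 10 cases. Replication-dependent histone mRNAs mostly lack a poly(A) tail, so the oligo(dT) capture used here measures only part of them.

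**Figure D4:**
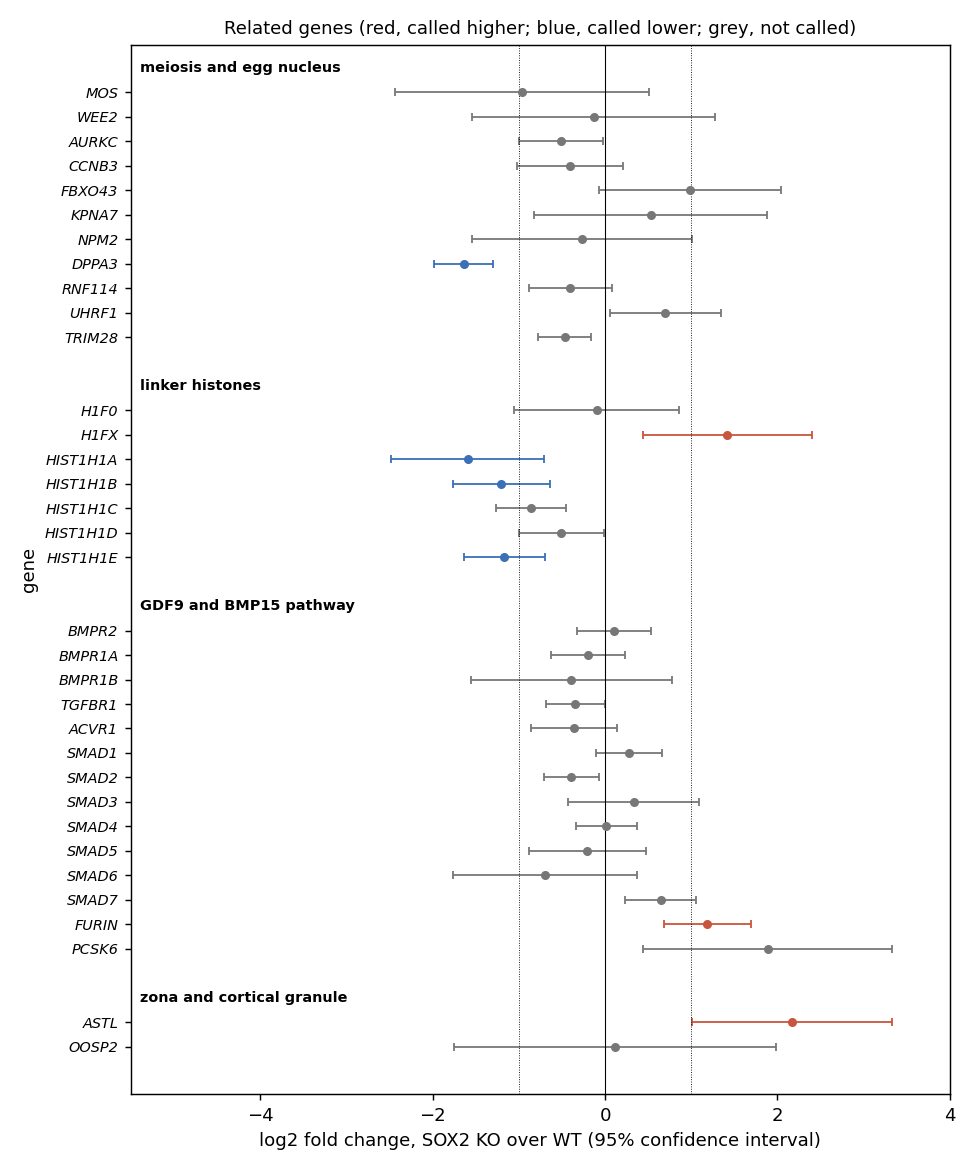
Log2 fold change of *SOX2* KO over WT with 95% confidence intervals from limma for genes of meiosis and the egg nucleus, linker histones, the GDF9 and BMP15 pathway and the zona and cortical granule. Red genes were called higher, blue genes lower and grey genes not called, and the dotted lines mark 2-fold changes. *DPPA3* at -1.64 and *FURIN* at 1.19 have intervals that leave out 0.

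Markers of cumulus and granulosa cells and of sperm were read as well. The authors had stripped the cumulus cells from the zygotes by pipetting. Of 10 tested markers of cumulus and granulosa cells, 0 were called by limma, DESeq2 or edgeR. By each tool 1 had an unadjusted p under 0.05, with no share of all genes computed at that p. The summed level of these markers ranged over 34.1 to 89.5 normalized read counts for WT and 58.1 to 105 for *SOX2* KO. In nc2 it was 34.1, the lowest of the 10, and in nc4 73.0. Of 4 tested sperm markers, *AKAP4* was called higher, with 0 reads in all WT embryos and 1, 5, 3, 0 and 4 reads in ko1 to ko5. Its call was kept with DESeq2 (DESeq2 adjusted p = 0.0480) and edgeR (edgeR adjusted p = 0.0334). It was lost in 13 of 21 alternatives, 9 of the 10 fits without 1 embryo included. Over all genes tested, limma called 8.93% higher and 1.16% lower. The sperm markers summed to 1.48 to 36.6 for WT and 4.11 to 17.4 for *SOX2* KO.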

How the data were processed

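Polyadenylated RNA of 10 single bovine blastocysts had been sequenced by Smart-seq2, which uses no molecular identifiers. The authors used Trimmomatic for trimming, HISAT2 for alignment to the build ARS-UCD1.2, featureCounts for counting and DESeq2, and deposited a normalized signal per gene and embryo. Its values behave as reads divided by 1 factor for each embryo. Annotation release and strand setting are not given in the sources used here. Undoing that scaling gave whole reads for all 201120 values (100%, tolerance 0.0001). Columns were assigned to groups by name. The numbers ko1 to ko5 do not match the label numbers 1, 2, 3, 5 and 6. No 2 embryos had identical reads.

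The main test was limma 3.58.1 with a trended prior and no covariates, on log2(normalized read count + 1), for the 20056 genes whose mean reached 1. On this scale the change of genes with few reads is understated. DESeq2 1.42.0, edgeR 4.0.16, other pseudocounts, scalings, filters and weights, and fits without each embryo were alternatives. The study used DESeq2. Single values were compared by exact permutation in Python 3.11.15 with scipy 1.17.1. The fits were tested on simulated data with known changes of 2 on the log2 scale. At a mean under 10, limma recovered 3 of 85 changes, DESeq2 3 of 54 and edgeR 2 of 85. At a mean of 10 or more, they recovered 102, 104 and 104 of 110. Intervals on read ratios use the Clopper-Pearson method and cover counting error only.

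The members and lists were chosen with earlier results of these data known. Named genes were the members, genes of the lists that were called or had a mean of at least 100, and the 3 genes most like each member with a mean of at least 10. One of the latter is not reported here. Names outside this rule are given as chosen after their values were seen, or as markers, neighbours or relatives of the members. Gene lengths of ARS-UCD1.2 were not used here, so expression levels are not ranked between genes, and no sequence is shown.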

Additional observations from a re-analysis of the deposited data

Results flagged for a closer look

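In 2 of 24 groups of 5 embryos examined, 1 embryo lay apart by Dixon's test, where about 1.2 would by chance. In both groups the other 4 embryos were tied, and any differing embryo is then flagged. The figure of 1.2 assumes values without ties, so it is no guide for these counts. *NLRP5* had 3.05 normalized read counts, which is 4 reads, in the WT embryo nc1 and 0 in the other 4 WT embryos. At least 1 read was found for 7 of the 9 transcripts in the *SOX2* KO embryo ko5 and for 9 in each of the other *SOX2* KO embryos. The 2 transcripts with no read in ko5 were *GDF9* and *ZP4*, for which 3 reads there would be 3.46 normalized read counts.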

How the results depend on the processing

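No paired analysis was possible because the column names ko1 to ko5 cannot be matched to the numbers in the labels. The sources used here also describe no pairing of WT with *SOX2* KO embryos, so a shared label number need not mark a pair. The number of transcripts of the set called, 1 in the main fit, was 0 with DESeq2, edgeR, a pseudocount of 5, quantile normalization, a mean of at least 5 (3 transcripts tested) and without nc2 and nc4, and 0 to 1 with each embryo left out. The number of all genes called, 2024, was 1015 with a mean of at least 5, 1185 with a pseudocount of 5, 3515 with sample quality weights, 629 without nc2 and nc4 and 947 to 3324 with each embryo left out. With quantile normalization it was 1076, 629 higher and 447 lower, against 1792 higher and 232 lower in the main fit. The number of related genes called, 7 of 65, was 11 with sample quality weights, 3 without nc2 and nc4 and 5 to 10 with each embryo left out. The log2 fold change of *BMP15* turned from -0.10 to 1.02 with a pseudocount of 0.1, 0.22 with sample quality weights and 2.05 without nc2 and nc4, and lay between -0.78 and 0.76 with each embryo left out. That of *ZP3* turned to -0.013 with quantile normalization and -0.15 without nc2 and nc4, and lay between -0.041 and 0.26 with each embryo left out. That of *ZP4* turned to 0.15 without nc2 and nc4, and that of *H1FOO* to -0.36 with quantile normalization. That of *GDF9* lay between -0.50 and 0.071 with each embryo left out. *ZP2*, *ZAR1*, *NLRP5* and *OOEP* had the same direction in every alternative run, but their size moved. With quantile normalization *ZP2* went from 0.97 to 0.055, *ZAR1* from 1.39 to 0.25 and *NLRP5* from 1.76 to 0.70, and with a pseudocount of 0.1 *ZAR1* went to 3.30 and *NLRP5* to 4.14. The difference in genes found, 1904, stayed within 1634 to 2177 with each embryo left out and was 2190 after thinning. The difference in the *RN18S1* share, 6.40 percentage points, lay between 4.58 and 7.84 with each embryo left out and passed without nc3 or ko4. The cause of these shifts was not tested. The fit with no filter and the rescaled fits kept the number of transcripts of the set called at 1. Depth is a limit for the 5 of 9 transcripts with at most 3 reads in most embryos, and the spread between embryos for *BMP15*.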
